A study of Mus musculus with 2 samples.

Results

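The guanylate-binding proteins (GBPs) and the immunity-related GTPases (IRGs) are large GTP-hydrolysing enzymes that cells make in response to interferon-γ. Their messages were measured here by single-cell RNA-seq in cells of the mouse colon. The set holds 10 genes of the 31053 in the count tables and was drawn up by symbol, as members of both families, with earlier results of these data known. The 6 GBPs are Gbp2, Gbp2b, Gbp3, Gbp4, Gbp5 and Gbp7, and the 4 IRGs are Iigp1, Igtp, Irgm1 and Ifi47. All 10 were found in both libraries.

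The cells came from bone marrow chimeras, in which donor marrow marked by CD45.2 had been engrafted into CD45.1 recipients. In the KO library the donor lacked the IL-10 receptor (Il10rb in the study's methods). In the DKO library the donor lacked the IL-10 receptor and also CerS2, the ceramide synthase that makes very long chain ceramides, so both libraries carried the receptor deletion and neither was from intact marrow. Colon cells freed with collagenase D were sorted on CD11b, CD11c and CD64, which monocytes, macrophages and related cells carry on their surface. The study made chimeras because loss of CerS2 in the whole body has systemic effects, so the recipients' own tissues kept both genes. How many mice went into each library, and their age and sex, are not given in the labels.

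There was 1 library per genotype. Genotype therefore cannot be told apart from mouse, sort or library, no test between genotypes was possible, and every interval below is a 95% interval for counting error only. The KO library held 2443 cells after filtering (12411247 unique molecular identifiers, UMIs, median 4715 per cell) and the DKO library 730 (3401458 UMIs, median 3722), and 1 barcode occurred in both. Cers2 gave 446 UMIs in KO monocyte/macrophage-like cells and 0 in DKO. A floor of 3 counts, set beside values of 0 here, is 1.67 UMIs per 1000000 UMIs of the class (CPM) in DKO. Il10rb gave 39 and 9 UMIs in these cells, a count at the 3′ end that checks nothing unless the deletion reaches it. The labels call the cells colon macrophages and the study's gates were set against neutrophils, T cells and B cells, but marker genes placed 66.4% of KO cells and 47.0% of DKO cells in a monocyte/macrophage-like class, and neutrophil-, dendritic cell-, T cell-, cytotoxic or innate lymphocyte- and B cell-like classes were also present. The cytotoxic or innate lymphocyte-like class was also high in T cell markers, which summed to 4687 CPM in KO and 4741 CPM in DKO.

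Interferon-γ is released chiefly by T cells and natural killer cells and binds a receptor of an IFNGR1 and an IFNGR2 chain. Its targets are reached through interferon-γ-activated sequences (GAS) in promoters and through IRF1, an induced factor that binds interferon-stimulated response elements (ISREs). GBPs and IRGs assemble on membranes around intracellular microbes and break them open. In the gut they are studied for defence against invasive bacteria and parasites and for inflammasome activation.

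The promoters were read for these elements because the members are known as targets of 1 pathway. RefSeq promoters (GRCm38.p6, from 250 bases before to 50 bases after the transcript start) were available for 8 of the 10 members. The ISRE core GAAANNGAAA, searched on both strands, was found in 7 of the 8, before the start in each, and in 3.44% of all 32851 promoters. The GAS core TTCNNNGAA was found in 3 of the 8 (Gbp5, Gbp7 and Igtp), against 8.30% of all promoters, and both cores stood together in 0.454% of them. The stretches around the ISRE cores are shown 5′ to 3′ on the strand of the gene, with the matches in capitals. In Gbp3 and Irgm1 the capitals are 2 overlapping ISRE cores, and in Gbp7 and Igtp the first run of capitals is a GAS core.
Gbp2: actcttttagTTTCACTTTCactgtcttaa
Gbp2b: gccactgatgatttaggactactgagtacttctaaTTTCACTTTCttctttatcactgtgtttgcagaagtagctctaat
Gbp3: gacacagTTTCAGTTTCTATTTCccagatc
Gbp5: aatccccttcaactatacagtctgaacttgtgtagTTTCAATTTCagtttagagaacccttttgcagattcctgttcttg
Gbp7: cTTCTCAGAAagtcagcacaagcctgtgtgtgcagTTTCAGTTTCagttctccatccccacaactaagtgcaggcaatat
Igtp: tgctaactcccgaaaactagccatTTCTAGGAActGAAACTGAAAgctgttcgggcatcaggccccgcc
Irgm1: gtttcaaGAAATAGAAACCGAAActgattc

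Of these stretches, 5 lie on the plus strand of chromosome 3, in the cluster that holds 5 of the GBPs: Gbp5 at chr3:142496734-142496813, Gbp7 at chr3:142530248-142530327, Gbp3 at chr3:142559992-142560021, Gbp2b at chr3:142594675-142594754 and Gbp2 at chr3:142620594-142620623. On chromosome 11 the Igtp stretch is at chr11:58199487-58199555 on the plus strand and the Irgm1 stretch at chr11:48871428-48871457 on the minus strand. In the GENCODE annotation of the same build the Gbp2 and Irgm1 stretches overlap an exon of the same gene, the Gbp5 stretch lies in an intron, and the other 4 lie outside genes. The Ifi47 promoter held neither core in this window. Gbp4 lies on chromosome 5 (105115767 to 105139586, minus strand). A match is a run of letters, and binding was not measured here.

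The levels differed more between cell classes than between libraries. A CPM is a share of all UMIs of a class, so a lower share for a gene and a higher share for all other genes cannot be told apart. Each captured message end counts once, so that values were not divided by transcript length. The neutrophil-like cells had the highest summed level of the 10 GTPases, 4592 CPM in KO (160 cells) and 3283 in DKO (48 cells). Monocyte/macrophage-like cells followed with 1963 CPM in KO (1622 cells) and 1381 in DKO (343 cells). The B cell-like class was lowest in both libraries, at 118 CPM (229 cells) and 132 CPM (166 cells). Monocyte/macrophage-like cells thus held 16.6 times the level of B cell-like cells in KO (log2 ratio 4.04, interval 3.73 to 4.39) and 10.5 times in DKO (3.38, 3.02 to 3.78).

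Between these ends stood the dendritic cell-like class with 840 CPM in KO (108 cells) and 366 in DKO (52 cells). The T cell-like class had 803 CPM in KO (149 cells) and 1022 in DKO (46 cells). The cytotoxic or innate lymphocyte-like class had 321 CPM in KO (141 cells) and 403 in DKO (67 cells). Neighbours in this order were separated beyond counting error except for the dendritic cell-like and T cell-like classes in KO (log2 ratio 0.06, -0.10 to 0.23) and the cytotoxic and dendritic cell-like classes in DKO (0.14, -0.21 to 0.48). The dendritic cell-like class therefore ranked below 2 classes in KO and below 4 in DKO.

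**Figure D1:**
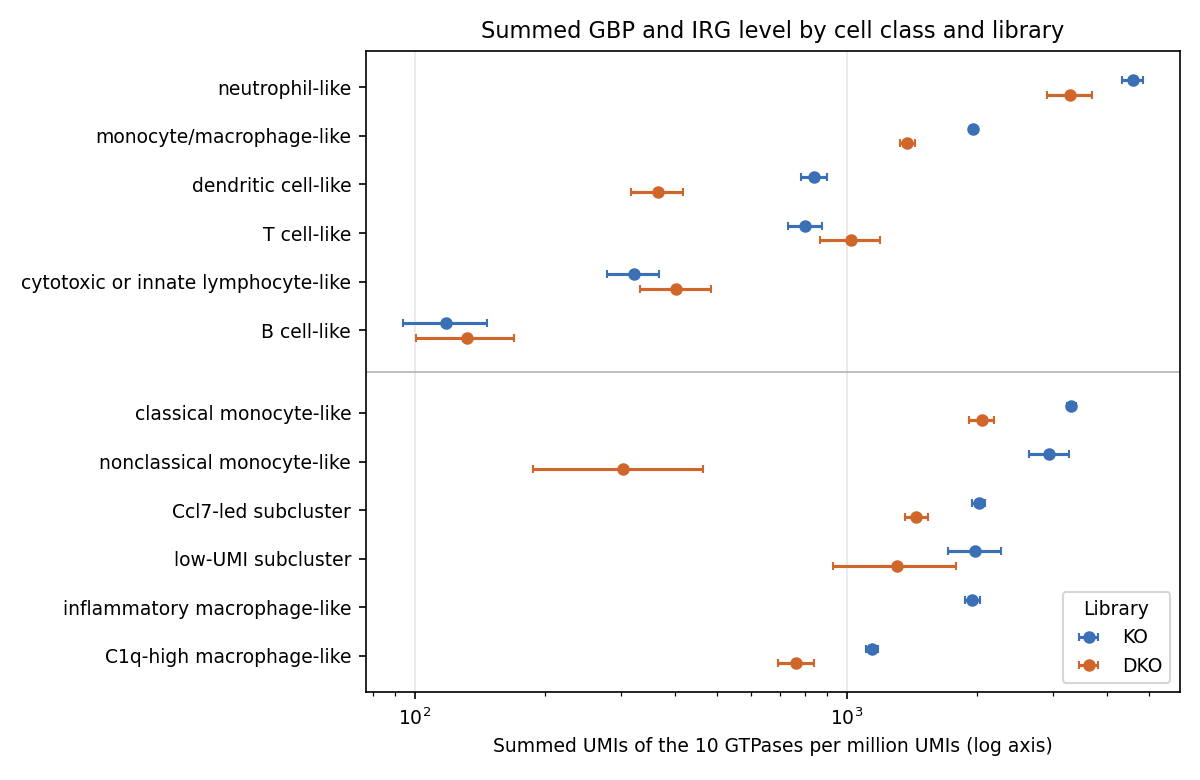
Summed CPM of the 10 GTPases (log axis) in each cell class and, under the line, in each subcluster of the monocyte/macrophage-like class, for the KO and DKO libraries. Points are the value of 1 library and bars its 95% Poisson interval. Neutrophil-like cells are at the right, at 4592 CPM in KO, and B cell-like cells at the left, at 118 CPM, while the widest gap between the libraries is in nonclassical monocyte-like cells.

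Subclusters of the monocyte/macrophage-like class also differed. Classical monocyte-like cells, the blood-derived precursors of gut macrophages, had 3312 CPM in KO (416 cells) and 2056 in DKO (85 cells). C1q-high macrophage-like cells, with the complement genes of mature tissue macrophages, had 1146 CPM in KO (553 cells) and 765 in DKO (73 cells). The classical cells were thus higher by 2.89-fold in KO and by 2.69-fold in DKO. All 8 markers behind the C1q-high name were found in that subcluster. Only 1 of them, Cd63, was among its 10 leading genes, which began with Dnase1l3, Apol7c and Acp5. Nonclassical monocyte-like cells, which patrol vessel walls, had 2945 CPM in KO (38 cells) and 304 in DKO (21 cells). A subcluster led by Ccl7, Gdf15 and Mrc1, which its markers did not name, had 2024 CPM in KO (320 cells) and 1450 in DKO (134 cells). Inflammatory macrophage-like cells, with high Arg1 and Nos2, were 182 cells in KO at 1954 CPM and a single cell in DKO. A last subcluster of 113 and 29 cells had a median of only 754 and 863 UMIs per cell, was led by Gm26917 and stayed unnamed, at 1980 and 1310 CPM. In KO the Ccl7-led, low-UMI and inflammatory subclusters did not differ beyond counting error (log2 ratios of neighbours 0.03, -0.18 to 0.25, and 0.02, -0.20 to 0.23).

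Of the GBPs, Gbp2, which attacks the vacuoles and walls of intracellular microbes, gave the most UMIs of any member in myeloid cells, at 31.7% of all member UMIs in KO monocyte/macrophage-like cells and 43.2% in KO neutrophil-like cells. Its level was 1983 CPM in KO and 1292 in DKO neutrophil-like cells, 623 and 405 in monocyte/macrophage-like cells, and 13.3 in KO B cell-like cells (9 UMIs there and 6 in DKO). In classical monocyte-like cells it reached 1302 CPM in KO and 811 in DKO. Gbp5, which promotes assembly of the NLRP3 inflammasome, had its highest class level in neutrophil-like cells as well, at 506 CPM in KO and 498 in DKO. In monocyte/macrophage-like cells Gbp5 stood at 177 and 76.8 CPM.

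Gbp2b, the mouse gene also known as Gbp1, had another distribution. It gave 0 UMIs in neutrophil-like cells of both libraries, where the floor of 3 counts is 10.5 CPM in KO, while monocyte/macrophage-like cells had 53.0 CPM in KO and 61.8 in DKO. Its highest level was in the Ccl7-led subcluster, 177 CPM in KO and 137 in DKO. Classical monocyte-like cells, high in Gbp2, had only 7.72 and 4.50 CPM of Gbp2b. Every lymphoid class held at most 1 Gbp2b UMI per library. Gbp3, Gbp4 and Gbp7 were found in all classes, and in KO monocyte/macrophage-like cells they stood at 113, 153 and 144 CPM.

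Of the IRGs, Iigp1, an effector that loads onto microbe-containing vacuoles, was the other gene with uneven classes. KO neutrophil-like cells held 1 Iigp1 UMI (3.49 CPM) where monocyte/macrophage-like cells held 1735 (197 CPM), a log2 ratio of -5.24 (-11.13 to -3.34). DKO neutrophil-like cells held 6, all in 1 cell. KO cytotoxic or innate lymphocyte-like cells held 0 Iigp1 UMIs, where the floor of 3 counts is 4.73 CPM. DKO ones held 6 (21.8 CPM), at least 4.61-fold higher against that floor. T cell-like cells had 96.9 CPM in KO and 175 in DKO, so Iigp1 was present in another lymphoid class.

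Igtp, also called Irgm3, is with Irgm1 one of the regulatory IRGs that keep the effector IRGs inactive on the cell's own membranes. It gave the most UMIs of the members in KO T cell-like cells, at 197 CPM or 24.5% of their member UMIs, and had 226 CPM in DKO. That was 4.17 times the level in the cytotoxic class in KO (47.3 CPM) and 1.95 times in DKO (116 CPM). Among the KO classes, though, Igtp was highest in neutrophil-like cells, at 349 CPM, with 190 in DKO. Monocyte/macrophage-like cells had 85.8 and 59.6 CPM of Igtp. Irgm1, a regulator that also acts in autophagy, was highest in neutrophil-like cells, at 548 CPM in KO and 320 in DKO. In monocyte/macrophage-like cells Irgm1 stood at 191 and 111 CPM. Ifi47, an effector IRG also called Irgd, had 695 and 569 CPM in neutrophil-like and 226 and 156 CPM in monocyte/macrophage-like cells.

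**Figure D2:**
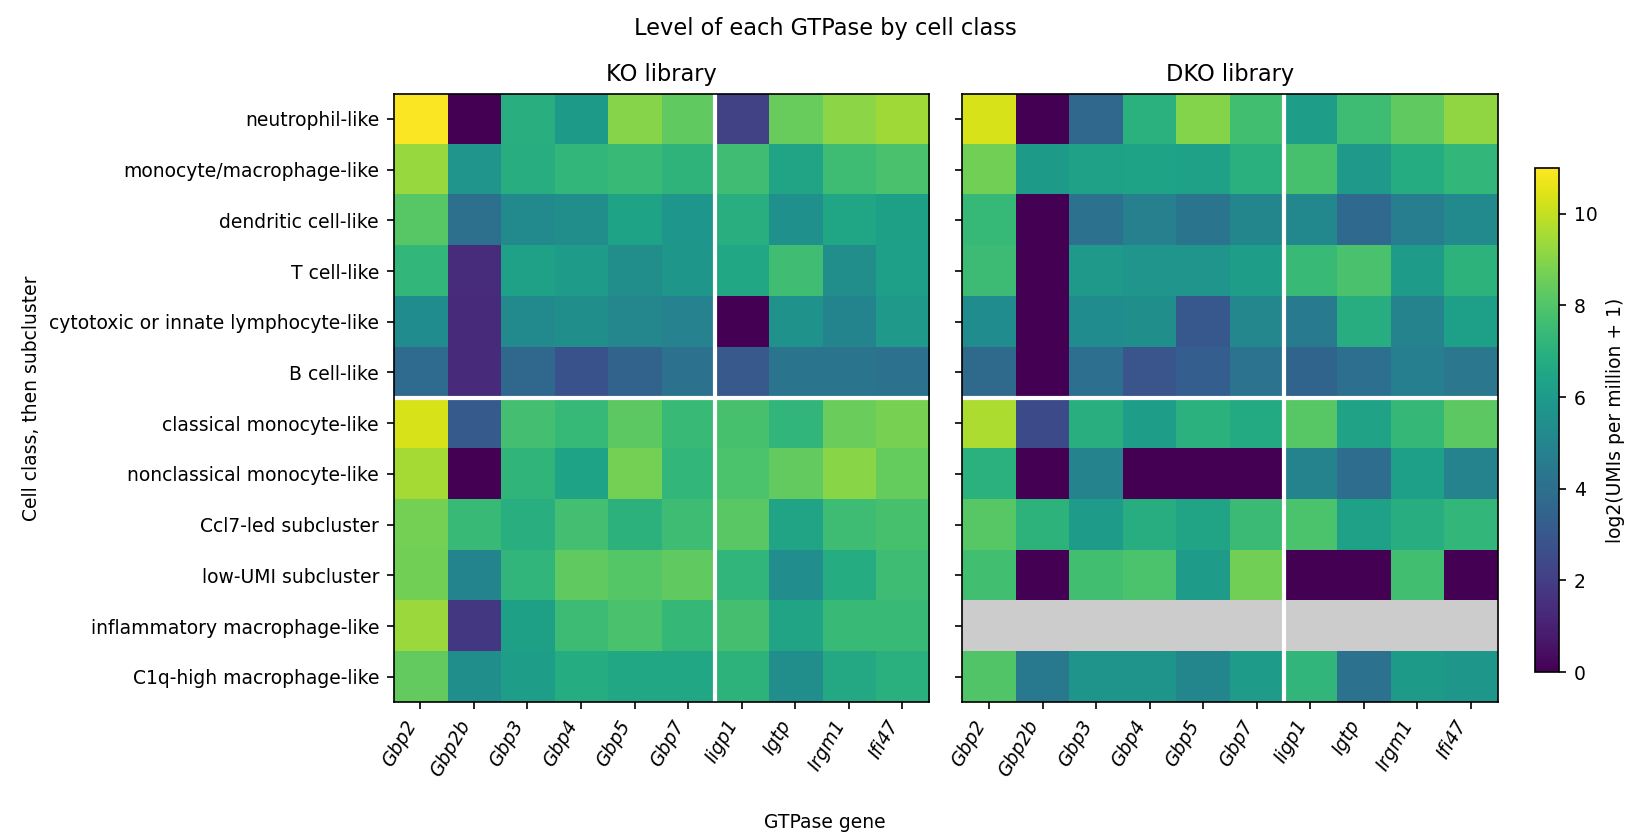
Level of each GTPase, as the log2 of CPM plus 1, in each cell class (upper rows) and subcluster (lower rows) of the KO and DKO libraries, with the GBPs to the left of the white line and the IRGs to the right. The Gbp2b column is at 0 in neutrophil-like and nonclassical monocyte-like cells of both libraries and brightest in the Ccl7-led subcluster (177 CPM in KO), and the row left grey has 1 cell in DKO.

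RNA of other cells bears on the low classes. Lyz2, a lysozyme message of myeloid cells, was found in 3.49% of KO and 1.81% of DKO B cell-like cells (median 2430 and 2516 UMIs), and in 9.40% of KO and 2.17% of DKO T cell-like cells (median 3638 and 2912 UMIs). If macrophage RNA came along in the ratio of member to Lyz2 UMIs seen in monocyte/macrophage-like cells, it would account for 74.3 of the 489 member UMIs in KO T cell-like cells and 5.13 of the 80 in KO B cell-like cells. In KO B cell-like cells that is 6.41% of the member UMIs, and the same sum based on Cd14 gave 2.68%, on C1qa 2.21% and on Apoe 301%. In DKO B cell-like cells the values were 1.38%, 1.39%, 0% and 160%. Apoe stood apart from the other 3 markers in this class, with 498 UMIs in KO where C1qa gave 1.

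Over single cells the members were spread unevenly. Each cell was thinned to 1500 UMIs to put the libraries at 1 depth, which left out 150 KO and 40 DKO monocyte/macrophage-like cells that were shallower. Of the rest, 75.3% of KO cells (exact interval 73.0 to 77.5, 1472 cells) and 59.7% of DKO cells (54.0 to 65.3, 303 cells) held at least 1 member UMI, and 91.5% and 79.2% before thinning. The median cell held UMIs of 2 different members in KO and of 1 in DKO. Cells with 5 or more members made up 11.5% in KO and 7.26% in DKO. The variance of member UMIs per cell was 4.39 times the mean in KO and 4.58 times in DKO, where independent counting would give a ratio near 1. The top 10% of cells held 36.6% of the member UMIs in KO and 44.6% in DKO. The shares are of cells with a UMI and not of cells that express a member.

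The order of subclusters by share followed their levels. Of KO cells, 91.2% of classical monocyte-like cells (88.0 to 93.7) held a member UMI after thinning, against 61.5% of C1q-high macrophage-like cells (57.3 to 65.6). In DKO the shares were 72.8% (61.8 to 82.1) and 40.8% (29.3 to 53.2). The Ccl7-led subcluster had 78.3% in KO and 67.2% in DKO. Nonclassical monocyte-like cells had 82.4% of the 34 KO cells and 22.2% of the 18 DKO cells, with intervals of 65.5 to 93.2 and 6.41 to 47.6 that do not overlap. Before thinning these shares were 97.3% and 86.4% (classical), 86.7% and 73.2% (C1q-high), 93% and 84.4% (Ccl7-led) and 88.2% and 38.9% (nonclassical).

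Among the other classes, 87.6% of 97 KO neutrophil-like cells and 59.3% of 27 DKO cells held a member UMI at this depth (87.6% and 66.7% before thinning), but 63 and 21 cells of this class were too shallow to enter. The ratio of variance to mean was 5.31 in KO and 13.3 in DKO neutrophil-like cells, and the top 10% of DKO cells held 55.7% of the member UMIs. Dendritic cell-like cells had 58.3% in KO and 31.4% in DKO (89.3% and 54.9% before thinning). In T cell-like cells the shares were 52.1% and 52.4% (63.9% and 61.9% before thinning), and in the cytotoxic class 42.1% and 49.3% (65.7% and 68.7%). B cell-like cells had 12.8% and 16.8% (21.8% and 26.7%). Of the lymphoid classes, at most 5 cells per library were too shallow except for 18 KO B cell-like cells.

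**Figure D3:**
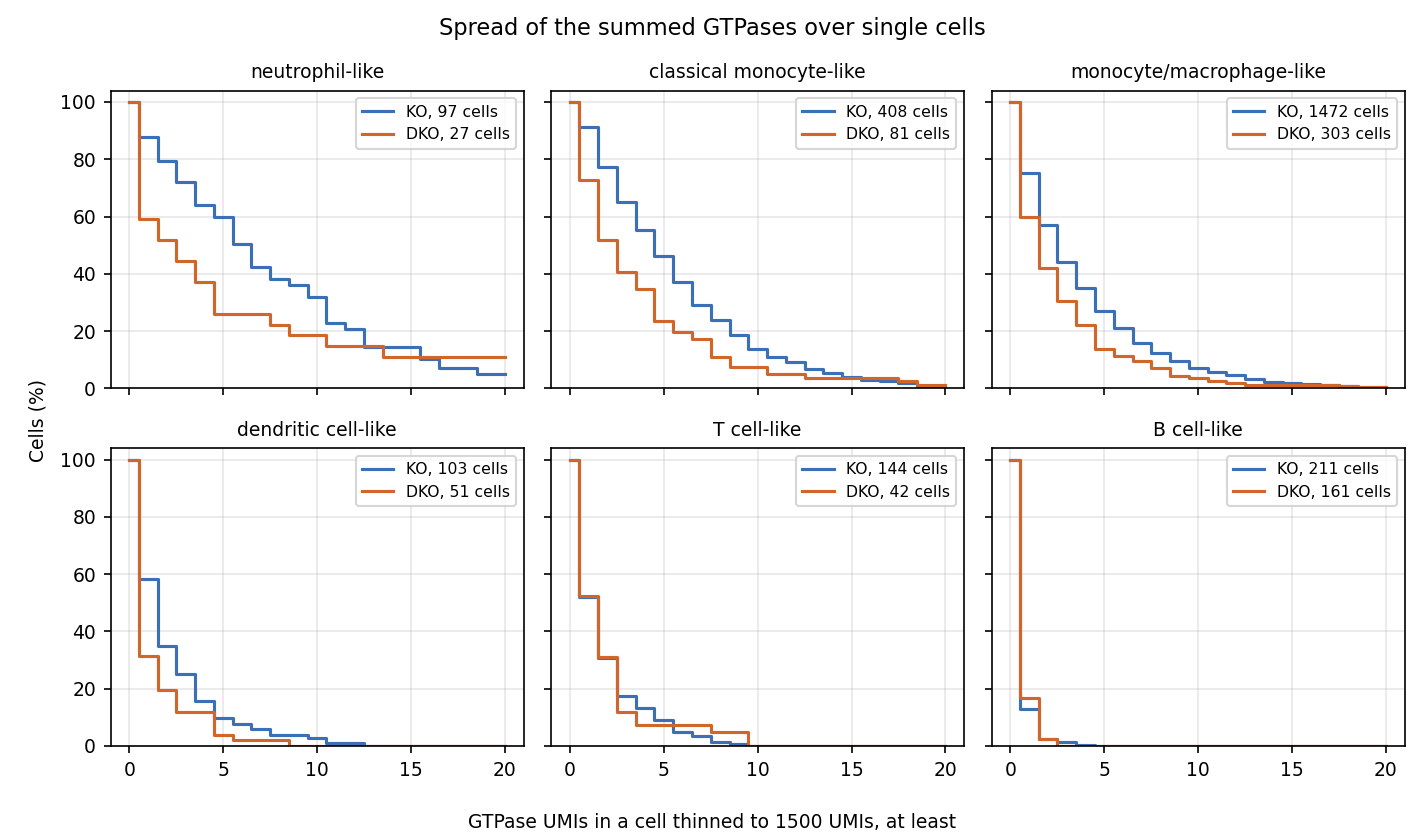
Share of cells (vertical axis, percent) with at least the number of GTPase UMIs on the horizontal axis, after each cell was thinned to 1500 UMIs, in 6 groups of cells of the KO and DKO libraries. The KO line lies above the DKO line at 1 UMI in monocyte/macrophage-like (75.3% against 59.7%) and dendritic cell-like cells (58.3% against 31.4%), while in T cell-like cells the lines start at 52.1% and 52.4%.

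The members were not equally concentrated. In KO monocyte/macrophage-like cells Gbp2 was found in 46.1% of thinned cells, Iigp1 in 17.5% and Gbp2b in 6.11%. Before thinning of the same cells, the top 10% of cells held 42.1% of the UMIs of Gbp2, 67.9% of those of Iigp1 and 84.1% of those of Gbp2b. By the ratio of variance to mean in thinned cells the order was another, with Gbp2 at 2.79, Iigp1 at 2.28 and Gbp2b at 1.64. Up to 33 Iigp1 UMIs came from 1 cell before thinning. In all, 20 KO and 5 DKO cells of this class held 50 or more member UMIs before thinning, with a maximum of 82.

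In several classes IRG messages were more often found where a GBP message was found too. After thinning, an IRG UMI was seen in 60.7% of KO monocyte/macrophage-like cells with a GBP UMI (57.5 to 63.7) and in 25.4% of those without (21.6 to 29.5). The DKO values were 55.2% (47.0 to 63.2) and 18.1% (12.3 to 25.3). In KO neutrophil-like cells they were 85.0% and 29.4%. KO T cell-like cells had 49.0% (34.8 to 63.4) and 25.8% (17.3 to 35.9), and DKO ones 55.6% and 39.4%, with only 9 cells that held a GBP UMI. The cytotoxic or innate lymphocyte-like class had no such difference, with 22.9% (10.4 to 40.1) and 22.9% (15.2 to 32.1) in KO and 35.7% and 35.8% in DKO. Subclusters differ in the levels of both families, and within KO C1q-high macrophage-like cells the shares were 45.6% and 18.4%. In DKO C1q-high cells they were 20.8% (7.13 to 42.2) and 10.6% (3.55 to 23.1), intervals that overlap.

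The comparison of DKO with KO asks how loss of CerS2 on the IL-10 receptor-deficient background relates to the GTPases. In monocyte/macrophage-like cells the summed level was lower in DKO, with a log2 ratio of -0.51 (-0.57 to -0.45), while the median over all 8244 genes with at least 50 UMIs was 0.10. Of the 10 members, 4 were at least 1.5-fold lower and 0 at least 1.5-fold higher. Over all genes tested, 6.8% were lower and 9.46% higher by that fold. For 7 members the interval lay below 0 and for 1 above it.

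Gbp5 had the lowest ratio, from 177 CPM in KO to 76.8 in DKO (-1.20, -1.46 to -0.95). Gbp4, another GBP of vacuole defence, stood at 153 and 83.5 CPM (-0.87, -1.13 to -0.63). Irgm1 stood at 191 and 111 CPM (-0.77, -0.99 to -0.56), and Gbp2 at 623 and 405 (-0.62, -0.74 to -0.51). These were the 4 past the fold. Gbp3 (-0.53), Ifi47 (-0.53) and Igtp (-0.52) were lower by less than 1.5-fold with intervals below 0, and the interval of Gbp7 (-0.20) ended at 0.00. Iigp1 stood at 197 and 224 CPM (0.19, 0.02 to 0.34), but this interval reached below 0 under TMM scaling (0.06, -0.10 to 0.21) and without the cell with the most member UMIs of each library (0.12, -0.04 to 0.28). A single DKO cell held 30 of its Iigp1 UMIs. Gbp2b was 53.0 and 61.8 CPM (0.23, -0.09 to 0.52). The GBP sum had a ratio of -0.60 (-0.68 to -0.53) and the IRG sum one of -0.34 (-0.44 to -0.25), intervals that do not overlap. Of the IRGs only Iigp1 was not lower, and sums without Iigp1 were not compared. The same held in classical monocyte-like cells, where Iigp1 had 0.36 and Igtp, Irgm1 and Ifi47 had -0.88, -1.15 and -0.54. The families were closer within C1q-high cells (-0.63 and -0.49) and Ccl7-led cells (-0.52 and -0.42), where the intervals overlap, and in neutrophil-like cells (-0.49 and -0.47). They were not closer within classical monocyte-like cells, at -0.80 (-0.93 to -0.669) and -0.50 (-0.666 to -0.34), intervals that do not overlap. In dendritic cell-like cells the order was the other way, at -0.99 (-1.27 to -0.72) for the GBPs and -1.58 (-2.01 to -1.19) for the IRGs.

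The make-up of the class moved with these values, since the C1q-high cells were 553 of 1622 in KO and 73 of 343 in DKO and the Ccl7-led cells 320 and 134. The subclusters with at least 20 cells in each library were also weighted as in KO, which left out the inflammatory macrophage-like subcluster. The ratio of the sum was then -0.64, and 8 members were at least 1.5-fold lower. Gbp2b, at 0.23 in the whole class, then had -0.60, and Iigp1 0.05. Within subclusters it was lower in DKO in C1q-high cells (43.8 and 20.7 CPM, -1.02, -2.11 to -0.21) and in Ccl7-led cells (-0.36, -0.71 to -0.03), and 16 and 2 UMIs were found in classical monocyte-like cells. Without the inflammatory macrophage-like subcluster, which DKO all but lacked, and with no weighting, 7 members were past the fold. The 6.8% of all genes that were lower was counted in the whole class, and no such share was counted under these settings.

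Each subcluster that held enough cells had a lower sum in DKO. In classical monocyte-like cells 7 of the 9 members with at least 50 UMIs were past the fold lower, against 10.5% of 4698 genes, and 0 higher (6.24%), and the ratio of the sum was -0.69 (-0.79 to -0.59). Gbp4 (-1.23), Gbp5 (-1.22) and Irgm1 (-1.15) had the lowest ratios there. Iigp1 stood at 221 and 282 CPM (0.36, 0.05 to 0.64), and without the cell with the most member UMIs of each library at 0.23 (-0.09 to 0.54). In C1q-high macrophage-like cells 6 of 10 members were past the fold lower, against 10.5% of 6032 genes, and 0 higher (8.34%), with a sum of -0.58 (-0.73 to -0.44), and the lowest ratio was that of Gbp5 (97.1 to 31.9 CPM, -1.56, -2.40 to -0.90). Of the 407 member UMIs of DKO C1q-high cells, 16.0% came from 1 cell. In the Ccl7-led subcluster 4 of 10 were past it, against 7.16% of 4917 genes, and 0 higher (7.34%), with a sum of -0.48 (-0.58 to -0.38), and here Iigp1 was lower too (294 to 237 CPM, -0.31, -0.57 to -0.05). In the low-UMI subcluster no member reached 50 UMIs (18.4% of 375 genes were lower and 9.87% higher), and the sum had a ratio of -0.58 (-1.13 to -0.09).

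The widest difference was in nonclassical monocyte-like cells, with 363 member UMIs in 38 KO cells and 21 in 21 DKO cells (-3.25, -3.99 to -2.64). Only 3 members had at least 50 UMIs over both libraries, and all 3 were past the fold lower, against 10.2% of 598 genes (9.53% were higher). Gbp2 stood at 730 and 130 CPM (-2.42, -3.66 to -1.50) and Irgm1 at 527 and 72.3 CPM (-2.74, -4.54 to -1.57). Gbp5 gave 51 UMIs in KO and 0 in DKO, at least 9.54-fold lower against the floor of 3 counts. These cells are few, and 1 KO cell held 17.1% of the KO member UMIs. Without the cell with the most member UMIs of each library the ratio was -3.34 (-4.20 to -2.66). The receptor chain Ifngr1 stood at 600 and 636 CPM (0.09, -0.49 to 0.64), whereas Irf1 stood at 690 and 173 CPM (-1.94, -3.00 to -1.11). Lyz2 stood at 1631 and 3108 CPM in these cells, so that not all myeloid messages were lower in DKO.

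In neutrophil-like cells the ratio of the sum was -0.48 (-0.68 to -0.30). In DKO 1 of the 48 cells held 12.3% of the member UMIs, an unevenness that the counting interval does not cover. Over the 11 alternatives the ratio ran from -0.61 to -0.41. Of the 6 members with at least 50 UMIs 4 were past the fold lower, against 18.4% of 968 genes, and 0 were higher, against 8.99%: Gbp2 (-0.61), Gbp7 (-0.64), Irgm1 (-0.75) and Igtp (-0.84). Gbp5 stood at 506 and 498 CPM (-0.01, -0.56 to 0.48), an interval that does not overlap that of Gbp5 in the monocyte/macrophage-like class. The 12 monocyte/macrophage markers summed to 6100 CPM in KO and 8343 in DKO of this class, with 1 and 6 of them at 0. Of the 12, 6 were lower in DKO. Cd14 gave 1400 UMIs in KO and 521 in DKO, and Lyz2 247 and 154, of 286393 and 84384 UMIs of the class. The part of these markers in the result was not tested.

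In dendritic cell-like cells, which take antigen to lymph nodes, all 8 members with at least 50 UMIs were past the fold lower, against 10.7% of 3164 genes, and 0 were higher, against 8.09%. The ratio of the sum was -1.20 (-1.43 to -0.98). Gbp5 stood at 81.9 and 17.8 CPM (-2.14, -3.31 to -1.24), Irgm1 at 90.2 and 25.0 (-1.81) and Iigp1 at 119 and 33.9 (-1.78, -2.60 to -1.11). The size rested on which cells were counted. With finer clusters the ratio was -0.52 (-0.68 to -0.36), and with cells gated 1 by 1 on markers it was -0.45 (-0.96 to 0.03). The monocyte/macrophage markers in this class summed to 2038 CPM in KO and 5918 in DKO, with none of the 12 at 0. Lyz2 alone stood at 938 and 5228 CPM, while 8 of the 12 markers were lower in DKO. In the 54 KO and 20 DKO cells with no Lyz2 UMI the ratio was -1.19 (-1.54 to -0.86).

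In T cell-like cells the sum was higher in DKO (0.35, 0.08 to 0.61). Of the 5 members with at least 50 UMIs, 2 were past the fold higher, against 7.73% of 2121 genes, and 0 lower, against 16.1%. These were Iigp1 (96.9 and 175 CPM, 0.86, 0.14 to 1.53) and Ifi47 (72.3 and 136 CPM, 0.93, 0.09 to 1.69). In DKO 1 cell held 18.4% of the member UMIs, and without the top cell of each library the ratio of the sum was 0.17 (-0.13 to 0.45), that of Iigp1 0.23 (-0.67 to 0.998) and that of Ifi47 0.83 (-0.08 to 1.64). With cells thinned it was 0.20, with -0.32 to 0.59 over 100 draws. The monocyte/macrophage markers summed to 498 CPM in KO, with 2 of 12 at 0, and to 6.47 CPM in DKO, with 11 at 0. In cells with no Lyz2 UMI (135 and 45) the ratio was 0.13 (-0.17 to 0.42).

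The cytotoxic or innate lymphocyte-like class had a ratio of 0.33 (-0.02 to 0.67). Of its 2 members with at least 50 UMIs, Igtp was past the fold higher, against 6.48% of 2423 genes (12.2% were lower), with 30 UMIs (47.3 CPM) in KO and 32 (116 CPM) in DKO (1.30, 0.53 to 2.07). Ifi47 stood at 59.9 and 72.7 CPM (0.30, -0.58 to 1.10). Markers moved with these values. The 10 cytotoxic or innate lymphocyte markers of the class summed to 5523 CPM in KO and 2979 in DKO, with none at 0, the 12 monocyte/macrophage markers to 291 and 29.1 CPM, with 3 and 7 at 0, and the 5 mast cell markers to 706 and 236 CPM, with 0 and 4 at 0. Their part in the result was not tested. In B cell-like cells no member reached 50 UMIs, so that 0 could be counted as lower or higher (3.97% and 9.81% of 2772 genes were), and the ratio of the sum was 0.16 (-0.35 to 0.65), so that a difference was not detectable at this depth. The 5 plasma cell markers summed to 6440 CPM in KO and 1184 in DKO of this class, with all 5 lower. The 9 B cell markers summed to 3478 and 3837 CPM, with 3 lower. What this shift in markers did to the ratio was not tested.

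**Figure D4:**
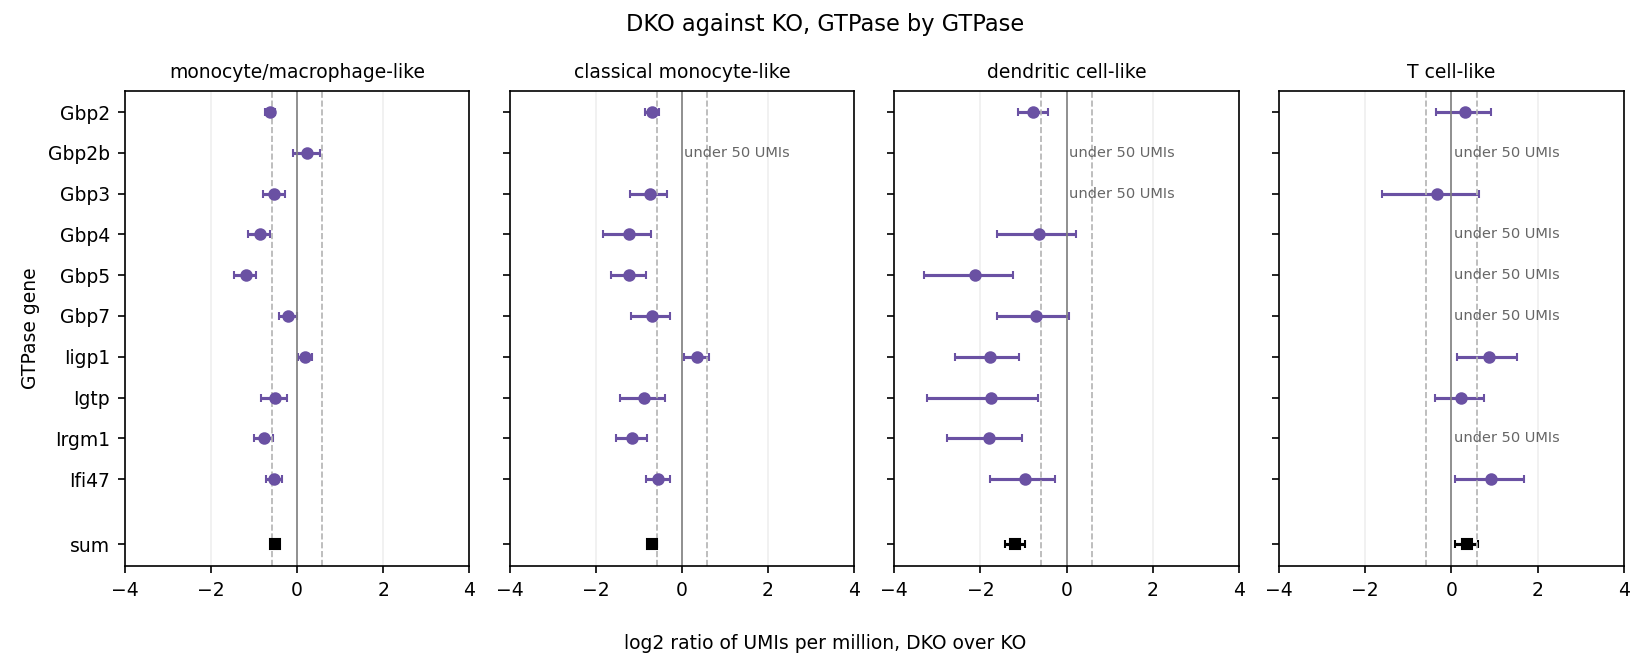
Log2 ratio of CPM, DKO over KO, of each GTPase with at least 50 UMIs and of the sum of all 10, in 4 groups of cells. Points are ratios between 1 library of each genotype, bars 95% intervals for counting error, and dashed lines 1.5-fold. In the 3 myeloid panels most points lie left of 0, with Iigp1 to the right in monocyte/macrophage-like (0.19) and classical monocyte-like cells (0.36), and in the T cell-like panel the sum lies at 0.35.

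The other genes of the pathway were read from lists. The ligand Ifng was found in T cell-like cells, with 97 UMIs (159 CPM) in KO and 7 (45.3 CPM) in DKO (-1.72, -3.17 to -0.72), and in the cytotoxic or innate lymphocyte-like class, with 39 (61.4 CPM) and 3 (10.9 CPM). Monocyte/macrophage-like cells held 3 Ifng UMIs in KO and 0 in DKO, and neutrophil-, dendritic cell- and B cell-like cells held 0. The receptor chains were higher in DKO monocyte/macrophage-like cells, with Ifngr1 at 196 and 276 CPM (0.49, 0.35 to 0.64) and Ifngr2 at 102 and 129 (0.33, 0.11 to 0.54). Within subclusters the Ifngr1 ratio was 0.69 (0.42 to 0.94) in C1q-high, 0.52 (0.22 to 0.82) in Ccl7-led and 0.06 (-0.22 to 0.33) in classical monocyte-like cells. The Ifngr2 ratio was 0.33 (-0.07 to 0.68), 0.16 (-0.26 to 0.56) and 0.27 (-0.17 to 0.68) there, so that each interval held 0. Ifngr1 was highest in the lymphoid classes, at 1104 and 1352 CPM in T cell-like and 1166 and 1515 in cytotoxic cells. Ifngr2 gave 1 UMI per library in the cytotoxic class, which had the lowest level of that chain of all classes.

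Of the 12 pathway genes with at least 50 UMIs in monocyte/macrophage-like cells, 1 was past the fold lower and 0 higher, where 6.8% and 9.46% of all genes tested in the class were. This was Socs1, an inhibitor of the receptor's kinases that the pathway itself induces (112 and 39.0 CPM, -1.51, -1.90 to -1.17). Irf1 stood at 392 and 364 CPM in the whole class (-0.11, -0.23 to 0.01). Within its subclusters Irf1 was lower in DKO, at 809 and 572 CPM in Ccl7-led (-0.50, -0.67 to -0.34), 149 and 103 in C1q-high (-0.52, -0.96 to -0.13) and 431 and 306 in classical monocyte-like cells (-0.49, -0.76 to -0.23). In lymphoid cells Irf1 was higher in DKO, at 205 and 304 CPM in T cell-like (0.58, 0.05 to 1.06) and 199 and 345 in cytotoxic cells (0.80, 0.40 to 1.19). The summed members had the same signs in these groups, from the same cells.

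Of 23 other targets of interferon-γ with at least 50 UMIs, 8 were past the fold lower in DKO monocyte/macrophage-like cells (6.8% of all genes) and 0 higher (9.46%), with a median log2 ratio of -0.34. They were Nos2, which makes nitric oxide (200 and 10.0 CPM, -4.28, -5.07 to -3.65), Ifi205 (-1.26), Batf2 (-1.19), Acod1, which makes itaconate (-1.15), the T cell chemokines Cxcl9 (945 and 477 CPM, -0.99) and Cxcl10 (657 and 364 CPM, -0.85), Ly6a (-0.77) and Cd274, which encodes PD-L1 (-0.63). Nos2 marks the inflammatory macrophage-like subcluster, and within C1q-high cells its ratio was -1.49 (-2.47 to -0.75). In dendritic cell-like cells 8 of 16 targets were past the fold lower (10.7% of all genes) and 0 higher (8.09%). In T cell-like cells 3 of 14 were lower (16.1% of all genes) and 1 higher (7.73%), with a median of -0.28, while the summed members stood at 0.35. The 3 were Cxcl9, Psmb9, a subunit of the immunoproteasome (237 and 123 CPM, -0.91, -1.72 to -0.25), and Ly6a (-0.60). Cxcl9 had 112 UMIs in KO and 1 in DKO (-4.25, -10.15 to -2.32), in the direction of the myeloid markers there, and Cxcl10, the gene that was higher, stood at 113 and 343 CPM (1.60, 1.05 to 2.13).

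Genes known mainly as targets of type I interferon did not move as the members did in the whole monocyte/macrophage-like class. Of 21 with at least 50 UMIs, 1 was past the fold lower (Isg15, -0.63), against 6.8% of all genes, and 5 higher, against 9.46% (Ifi44 0.80, Cmpk2 0.80, Ifit3 0.76, Oasl1 0.60 and Oas3 0.59), with a median of 0.17. Within C1q-high macrophage-like cells 12 of 16 were lower (10.5% of all genes) and 0 higher (8.34%), with a median of -1.09, and Rsad2 there stood at 107 and 30.1 CPM (-1.80, -2.66 to -1.12). In classical monocyte-like cells 1 of 19 was lower (10.5% of all genes) and 4 were higher (6.24%), among them Ifit3 (29.0 and 87.8 CPM, 1.61, 0.98 to 2.21). The pattern of this list thus depended on the subcluster, while the summed members were lower in each.

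Of 10 other GBPs and IRGs with at least 50 UMIs in the monocyte/macrophage-like class, 1 was past the fold lower and 0 higher, a share near that of all genes (6.8% and 9.46%). It was Tgtp1 (33.7 and 12.8 CPM, -1.37), which is nearly identical to Tgtp2 (-0.30), so that reads could have been split between them. Within subclusters more of this list was lower. In classical monocyte-like cells it was 3 of 7 (10.5% of all genes), with 0 higher (6.24%). In C1q-high cells 3 of 8 were lower (10.5%) and 1 higher (8.34%), and in Ccl7-led cells 2 of 9 lower (7.16%) and 0 higher (7.34%). Of 4 inducers of Ifng in the whole class, Il12a (-1.44) and Stat4 (-0.59) were lower and Il12b was higher (28 UMIs in KO, 66 in DKO, 3.51, 2.87 to 4.22). Of the members themselves, Gbp4 shares 10.6% of the 31-base words in the last 500 bases of its transcripts with other genes, mostly Gbp6, and Irgm1 10.0%, Gbp5 1.64%, and the other 7 share none.

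All other genes were compared with the members by their levels over 24 profiles of classes and subclusters, which share libraries and cells. Of 3839 genes, the 10 with the highest Pearson r with the summed members were Cxcl10 (0.886), Parp14 (0.877), Casp4 (0.873), Acod1 (0.865), Lilr4b (0.862), Cd274 (0.860), Myd88 (0.856), Mapkapk2 (0.852), Arg2 (0.852) and Dtx3l (0.850). Of these, Cxcl10, Casp4, Acod1 and Cd274 are also in the target list. The members differed in how closely each followed the sum of the other 9, from Gbp5 (0.91), Gbp2 (0.90) and Irgm1 (0.89) down to Igtp (0.55), Iigp1 (0.47) and Gbp2b (0.25).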

How the data were processed

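The deposited values were whole UMI counts for each gene in each barcode of 10x 3′ libraries. Per the submitters' processing notes, the authors used Cell Ranger 6.0.1 (mm10) and, for later steps, Seurat 4.3.0. Barcodes outside 300 to 5000 genes or above 10% mitochondrial UMIs were dropped, and the rest were clustered over both libraries (Seurat 5.3.0, R 4.3.3; 2000 variable genes without 96 interferon and GTPase genes, 30 components, 20 neighbours, resolution 0.3). Clusters were named from marker lists, with a scoring rule written after the clusters were seen, and at least 3 markers were needed. Scrublet (scanpy 1.11.5) called 6 of 2584 KO and 2 of 742 DKO barcodes as doublets (0.232% and 0.270%), and doublets were kept in the main analysis.

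UMIs were summed per class and library. Levels have exact Poisson intervals, ratios exact conditional intervals (with 0.5 counts added for the ratio itself) and shares Clopper-Pearson intervals, all for counting error. A gene was counted as lower or higher at 1.5-fold with at least 50 UMIs over both libraries. All members are named. Genes of the lists are named where past that fold, up to 6 in each direction (all 8 for the interferon-γ targets), besides Ifng, Ifngr1, Ifngr2 and Irf1. A gene of the pathway list is not reported here and was left out of its counts. List genes named for other reasons, such as within a subcluster, were chosen after their values were seen. Members and lists were chosen with earlier results of these data known. An epithelial cell-like class of 34 and 8 cells was left out of the class comparisons above, but its KO cells were among the 24 profiles used for the correlations.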

Additional observations from a re-analysis of the deposited data

Results flagged for a closer look

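The summed GTPases went opposite ways in different classes. In DKO against KO the log2 ratio was -0.51 in monocyte/macrophage-like, -1.20 in dendritic cell-like and -0.48 in neutrophil-like cells, and 0.35 in T cell-like cells. The intervals of these ratios do not reach 0, but the difference between classes was not tested, since each genotype had 1 library, and the T cell-like ratio without the top cell of each library was 0.17 (-0.13 to 0.45).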

How the results depend on the processing

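No paired analysis was possible because each genotype had 1 library. For the monocyte/macrophage-like sum, 12 of 14 alternatives stayed within the counting interval and all 14 kept the direction (-0.64 to -0.45). The other 2 were TMM scaling (edgeR 4.0.16), at -0.63, and subclusters weighted as in KO, at -0.64. That weighting used only subclusters with at least 20 cells in each library, and so not the inflammatory macrophage-like one. TMM shifted the values of this class by -0.13. The number of members at least 1.5-fold lower in this class was 4, and it was 7 under TMM, 8 with subclusters weighted as in KO and 7 without the inflammatory macrophage-like subcluster (an alternative chosen after seeing the data, as were the removal of the low-UMI subcluster, the cells with no Lyz2 UMI, those of the nonclassical class and those of Iigp1 and Ifi47 in other groups than the whole class). The share of all genes past the fold was not counted under the alternatives, so that these counts of members have no such share beside them. The dendritic cell-like ratio was -0.52 at resolution 0.8, -1.48 without the highest 5% of doublet scores and -0.45 with the per-cell marker gate. The gate also gave -0.75 for B cell-like cells and a KO log2 ratio of 3.10 for monocyte/macrophage-like over B cell-like cells. The cause of these moves was not tested. All 11 alternatives for neutrophil-like, 12 for T cell-like and 3 for nonclassical monocyte-like cells (-3.39 to -2.85) stayed within the counting interval. Depth limited the lymphoid classes, where 5 members or fewer reached 50 UMIs.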

Other observations

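The epithelial cell-like class, 34 KO and 8 DKO cells, held 243 and 28 member UMIs (534 and 409 CPM, log2 ratio -0.36, interval -1.0 to 0.18). In KO, 6 of these cells held 27 Ifng UMIs (59.3 CPM). The leading genes of the class held Lgals4, Krt18 and Krt8 but also Pclaf and the histone genes Hist1h2ae, Hist1h2ap and Hist1h1b. Whether the cells with Ifng were epithelial was not tested. The single DKO cell in the inflammatory macrophage-like subcluster held 66 member UMIs of 6913, of which 26 were Iigp1 and 14 Gbp2.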
